A study of Rattus norvegicus with 15 samples.

Results

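Pparg, Cebpa and Cebpb encode the central transcription factors of fat cell formation, and their messenger RNA was followed in rat bone marrow mesenchymal stem cells. The 3 genes were picked by their Ensembl identifiers, ENSRNOG00000008839 for Pparg, ENSRNOG00000010918 for Cebpa and ENSRNOG00000057347 for Cebpb, out of 34480 rows of a count table. The table carries no symbols and the reference used here held 0 rat Ensembl identifiers, so the pairing of identifier and symbol was taken as given. All 3 genes had enough reads to be tested, among 15543 genes that were.

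The cells are the adherent stromal cells of the marrow of Sprague-Dawley rats, an outbred strain, which can turn into fat or bone-forming cells, and they were grown past confluence before treatment. Total RNA was sequenced in 5 groups of 3 libraries: Adi_ASA cells (adipogenic differentiation basal medium plus aspirin), Adi cells (that medium alone), Ost_ASA cells (osteogenic differentiation basal medium plus aspirin), Ost cells (that medium alone) and Control cells, labelled untreated. Aspirin blocks the cyclooxygenases, the enzymes that make prostaglandins. The sources used here do not give the aspirin dose, the time in culture, the age and sex of the rats or whether libraries came from separate animals. The spread behind each p-value is that between these libraries and may be technical. Library totals were 18373289 to 22817858 counted reads.

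Fat cell formation runs as a cascade of these factors. In mouse preadipocytes, C/EBP beta, the product of Cebpb, appears early after hormonal induction and switches on Pparg and Cebpa. PPAR gamma, the product of Pparg, is a nuclear receptor that pairs with the retinoid X receptor, and it is the factor without which fat cells do not form. C/EBP alpha, the product of Cebpa, then keeps Pparg active and is needed for insulin-sensitive fat cells. Cebpb also acts outside fat, in inflammation and in bone-forming cells, and marrow stromal cells use Pparg in the choice between fat and bone.

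The promoters of the genes are shown because the cascade is one of factors acting on each other's genes, and because Pparg has more than 1 start site, whose reads a count per gene adds together. The sequences are the 250 bases before each annotated start, 5′ to 3′ on the plus strand, from RefSeq on build GRCr8, which is not the build named in the submitters' processing notes (Rnor_6.0). All 3 genes were matched by symbol, with 4 windows in all. Capitals mark exact matches, on either strand, to TATAAA (the core of a TATA box), TTGCNNAA (a core of C/EBP sites), TGACG (one arm of a cyclic AMP response element) or AGGTCA (one arm of a nuclear receptor site), and no matches overlapped.
Pparg, first start, chr4:150096808-150097057: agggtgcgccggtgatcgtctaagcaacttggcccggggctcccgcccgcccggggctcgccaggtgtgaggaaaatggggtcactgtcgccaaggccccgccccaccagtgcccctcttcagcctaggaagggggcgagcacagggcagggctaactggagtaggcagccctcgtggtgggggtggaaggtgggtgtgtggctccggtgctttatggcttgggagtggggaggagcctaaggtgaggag
Pparg, other start, chr4:150154522-150154771: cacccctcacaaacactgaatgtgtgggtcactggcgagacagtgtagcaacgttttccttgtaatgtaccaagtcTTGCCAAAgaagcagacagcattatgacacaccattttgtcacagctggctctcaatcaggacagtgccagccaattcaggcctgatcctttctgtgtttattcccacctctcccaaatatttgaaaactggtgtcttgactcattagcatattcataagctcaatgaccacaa
Cebpa, chr1:96896334-96896583: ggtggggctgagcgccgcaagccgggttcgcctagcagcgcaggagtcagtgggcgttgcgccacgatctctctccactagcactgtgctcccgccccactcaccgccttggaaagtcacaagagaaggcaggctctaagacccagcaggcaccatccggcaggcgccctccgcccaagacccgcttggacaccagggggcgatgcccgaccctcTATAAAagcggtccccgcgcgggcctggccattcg
Cebpb, chr3:176816755-176817004: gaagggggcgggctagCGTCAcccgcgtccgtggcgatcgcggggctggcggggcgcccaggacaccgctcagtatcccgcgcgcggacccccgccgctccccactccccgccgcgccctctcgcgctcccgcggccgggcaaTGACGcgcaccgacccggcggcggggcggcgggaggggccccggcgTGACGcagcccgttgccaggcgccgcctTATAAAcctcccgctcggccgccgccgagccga

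The windows differed in what they held. Cebpb carried TGACG 3 times, with leftmost bases at -234 (minus strand), -107 and -61 from the start, where -1 is the base just before it, and a TATAAA at -33. Cebpa carried 1 TATAAA at -35 and no other match. The downstream Pparg window carried 1 C/EBP core, TTGCCAAA at -174, and the upstream one carried no match to these letters. Of 33360 distinct windows of the same length in the reference, 12.9% held TATAAA, 9.2% TTGCNNAA, 18.2% TGACG and 14.1% AGGTCA. A match is a description of the letters, not a measured site.

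**Figure D1:**
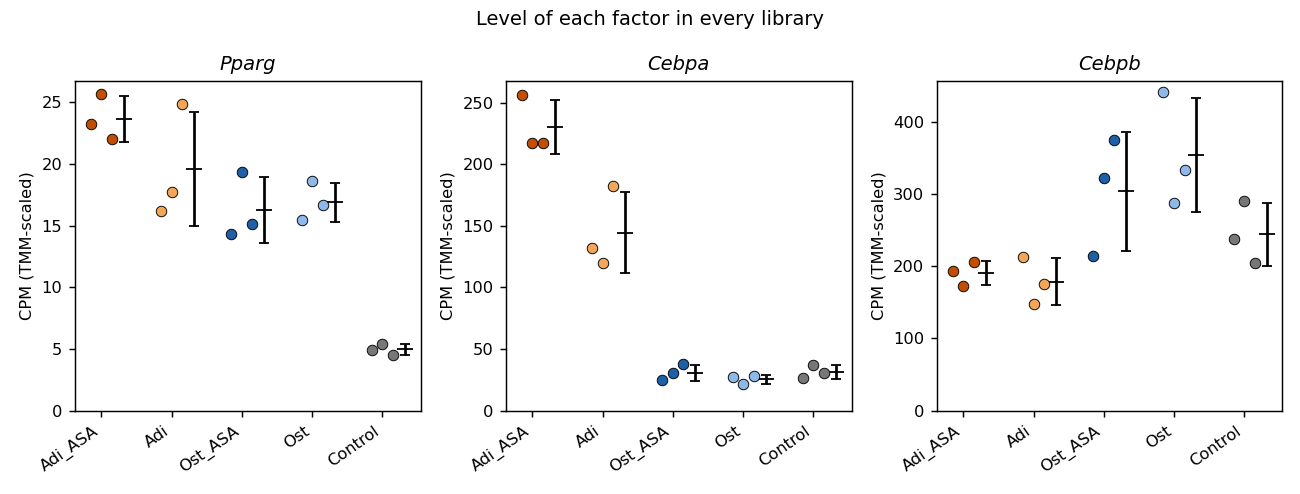
Level of Pparg, Cebpa and Cebpb in each of the 15 libraries, in CPM scaled by TMM, on linear axes that start at 0. Points are libraries in replicate order, and the bar beside them is the mean with its SD (n = 3). All libraries in either medium lie above Control for Pparg (14.3 CPM or more, against 5.42 CPM or less), the adipogenic libraries do so for Cebpa (119.6 CPM or more, against 37.4 CPM or less), and Cebpb has its lowest means in adipogenic medium. The share of all genes separated from Control in this way was not computed.

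Adipogenic medium alone was set against untreated culture to see whether the cascade had been engaged. Pparg and Cebpa were each several times higher in Adi cells, and Cebpb was not. Of the 3 factors 2 passed the edgeR quasi-likelihood test with adjusted p under 0.05, both higher, where 48.9% of all genes tested passed in either direction. The median log2 fold change of the 3 was 1.98, against -0.007 over all genes.

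Pparg, the nuclear receptor of the cascade, had 16.2, 17.8 and 24.9 CPM (reads scaled to library size and TMM factor) in Adi cells, against 4.93, 5.42 and 4.54 CPM in Control cells. Every Adi library was above every Control library. For this and the later comparisons between media or with Control, the share of all genes with such a separation was not computed. The mean was 19.6 ± 4.65 CPM in Adi and 4.96 ± 0.441 CPM in Control (SD, n = 3 each), a 3.95-fold rise (log2 fold change 1.98, SE 0.15, edgeR adjusted p = 9.09e-09). It was more positive than the change of 97.5% of the genes tested. As these are bulk cultures, more cells making Pparg and more Pparg RNA per cell cannot be told apart, and the same holds for the values below.

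Cebpa, the late factor that sustains Pparg, had 132, 119.6 and 182 CPM in Adi cells, against 26.2, 37.4 and 30.3 CPM in Control cells. The groups were far apart, and Adi replicate 3 was the highest Adi library for Cebpa as it was for Pparg. The rise was 4.63-fold (145 ± 33.2 CPM in Adi, 31.3 ± 5.65 CPM in Control, SD, n = 3 each; log2 fold change 2.21, SE 0.21, edgeR adjusted p = 5.52e-06), more positive than that of 97.9% of the genes tested.

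Cebpb, the early factor, had 212, 148 and 175 CPM in Adi cells, against 238, 289 and 204 CPM in Control cells. Adi replicate 1 lay inside the Control range and the other Adi libraries below it. The log2 fold change was -0.45 (SE 0.24, edgeR adjusted p = 0.143), with a 95% interval of -0.97 to 0.07. This interval holds levels in Adi of 0.51 to 1.05 times that in Control, and it is not adjusted for the number of genes.

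With aspirin in the adipogenic medium, the same comparison with Control gave the same 2 calls, where 44.4% of all genes passed. Pparg was 4.76-fold higher in Adi_ASA than in Control (log2 fold change 2.25, SE 0.15, edgeR adjusted p = 1.98e-09) and Cebpa 7.37-fold higher (log2 fold change 2.88, SE 0.21, adjusted p = 7.93e-07). Cebpb did not pass (log2 fold change -0.36, SE 0.24, edgeR adjusted p = 0.25). Both comparisons use the Control libraries, so they are not independent of each other.

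**Figure D2:**
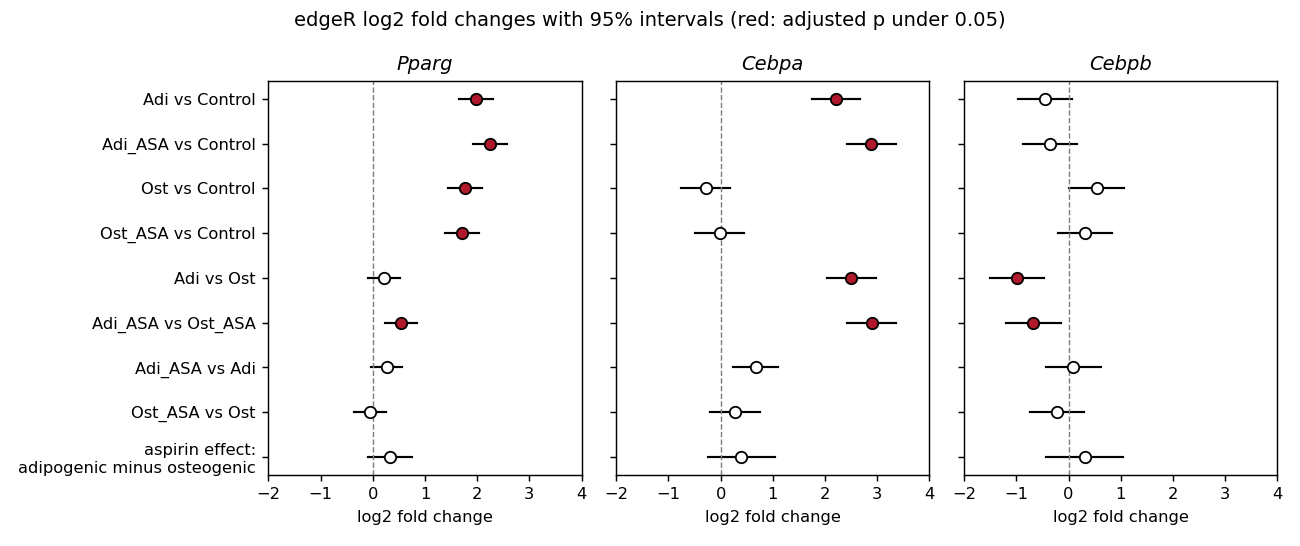
Log2 fold change (x axis) of Pparg, Cebpa and Cebpb in 9 comparisons (y axis), as points with 95% intervals from the edgeR model of all 15 libraries. Red points have adjusted p under 0.05. Pparg is red against Control in both media, Cebpa only in adipogenic medium, and none of the 3 is red for aspirin against the same medium without it.

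Osteogenic medium was set against the same untreated cells. Here Pparg rose and Cebpa did not pass the test. Of the 3 factors 1 passed the test, where 68.9% of all genes did, and the median log2 fold change of the 3 was 0.54, against -0.023 over all genes.

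Pparg had 15.5, 18.6 and 16.6 CPM in Ost cells, all above the 4.54 to 5.42 CPM of Control cells. The mean was 16.9 ± 1.58 CPM in Ost (SD, n = 3), a 3.4-fold rise (log2 fold change 1.77, SE 0.15, edgeR adjusted p = 1.17e-08). It was more positive than the change of 92.9% of the genes tested, against 97.5% for the rise in Adi cells within its own comparison.

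Cebpa had 27.0, 21.3 and 28.1 CPM in Ost cells, against 26.2, 37.4 and 30.3 CPM in Control cells. The ranges overlapped, with Ost replicate 2 the lowest of the 6 libraries. The log2 fold change was -0.29 (SE 0.21, edgeR adjusted p = 0.255), and its 95% interval of -0.77 to 0.19 holds no rise above 1.14-fold.

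Cebpb had 441, 287 and 332 CPM in Ost cells, against 238, 289 and 204 CPM in Control cells. Ost replicate 2 lay just under the highest Control library and the other Ost libraries above all Control libraries. The log2 fold change of 0.54 (SE 0.23) missed the threshold with an edgeR adjusted p of 0.0622. It passed with DESeq2 (0.54, adjusted p = 0.0311) and without Control replicate 2 (0.68, edgeR adjusted p = 0.0434) or Ost replicate 2 (0.67, edgeR adjusted p = 0.0389), and over all 12 alternatives the adjusted p was 0.0311 to 0.233.

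With aspirin in the osteogenic medium, Pparg again was the single factor to pass against Control (3.27-fold higher in Ost_ASA, log2 fold change 1.71, SE 0.15, edgeR adjusted p = 1.79e-08), where 69.3% of all genes passed. Cebpa stood at -0.01 (SE 0.21, edgeR adjusted p = 0.957) and Cebpb at 0.32 (SE 0.23, adjusted p = 0.251) on the log2 scale.

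The media were then compared directly, which tests the difference between the responses. Cebpa and Cebpb separated the media in opposite directions and without aspirin no difference of Pparg passed the test. In Adi against Ost 2 of the 3 factors passed, 1 higher and 1 lower, where 66.5% of all genes passed.

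Cebpa was 5.66-fold higher in Adi than in Ost, at 145 ± 33.2 CPM in Adi and 25.5 ± 3.66 CPM in Ost (SD, n = 3 each; log2 fold change 2.50, SE 0.21, edgeR adjusted p = 9.89e-07). The lowest Adi library, at 119.6 CPM, was far above the highest Ost library, at 28.1 CPM. Cebpb was lower in Adi, at 179 ± 32.2 CPM in Adi and 354 ± 79.2 CPM in Ost (log2 fold change -0.99, SE 0.24, edgeR adjusted p = 0.00347), a level 0.505 times that in Ost. The groups did not overlap, and the share of all genes without overlap between Adi and Ost was not computed. Pparg, at 19.6 ± 4.65 CPM in Adi and 16.9 ± 1.58 CPM in Ost, overlapped between the media and had a log2 fold change of 0.22 (SE 0.14, edgeR adjusted p = 0.195). Its 95% interval, not adjusted for the number of genes, ran from 0.94-fold to 1.43-fold. Without Adi replicate 1 the log2 fold change was 0.33 and passed (edgeR adjusted p = 0.0478), with adjusted p of 0.0478 to 0.98 over all 12 alternatives.

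With aspirin in both media, all 3 factors differed between Adi_ASA and Ost_ASA, where 65.7% of all genes did. Cebpa had 255.9, 218 and 218 CPM in Adi_ASA, against 24.8, 30.3 and 37.6 CPM in Ost_ASA, which is 7.45-fold higher (log2 fold change 2.90, SE 0.21, edgeR adjusted p = 2.61e-07). Pparg was higher in Adi_ASA by 1.46-fold, with 23.2, 25.7 and 22.0 CPM against 14.3, 19.3 and 15.2 CPM in Ost_ASA (log2 fold change 0.54, SE 0.14, edgeR adjusted p = 0.00273). The groups of Pparg did not overlap, the nearest libraries being at 22.0 CPM in Adi_ASA and 19.3 CPM in Ost_ASA. The share of all genes without overlap between these groups was not computed.

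Cebpb had 193, 172 and 205 CPM in Adi_ASA, against 214, 322 and 375 CPM in Ost_ASA. The log2 fold change was -0.68 (SE 0.23, edgeR adjusted p = 0.0263), with Ost_ASA replicate 1 close to the Adi_ASA libraries. This call was lost when only these groups were fitted (-0.67, edgeR adjusted p = 0.0612). It was also lost without Adi_ASA replicate 1 (-0.69, edgeR adjusted p = 0.0592) or 2 (-0.61, adjusted p = 0.0833), and without Ost_ASA replicate 2 (-0.63, adjusted p = 0.0691) or 3 (-0.49, adjusted p = 0.109). The adjusted p ran from 0.00524 to 0.109 over all 12 alternatives.

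Aspirin was added to the adipogenic medium to ask whether it changes adipogenic induction. None of the 3 factors passed the edgeR test between Adi_ASA and Adi, where 4.34% of all genes passed. Unadjusted edgeR p was 0.00576 for Cebpa, 0.0727 for Pparg and 0.709 for Cebpb. DESeq2 called 1 of the 3, Cebpa, and 858 of the 15543 genes fitted. The median log2 fold change of the 3 was 0.27, against 0.002 over all genes.

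Cebpa had 255.9, 218 and 218 CPM in Adi_ASA cells, against 132, 119.6 and 182 CPM in Adi cells. All Adi_ASA libraries lay above all Adi libraries, a separation that 23.5% of all genes tested showed in one direction or the other. The mean was 230.4 ± 22.1 CPM in Adi_ASA and 145 ± 33.2 CPM in Adi (SD, n = 3 each), with a log2 fold change of 0.67 (SE 0.19, edgeR adjusted p = 0.0918). The 95% interval ran from 1.18-fold to 2.14-fold, and the change was more positive than that of 96.3% of genes. The call turned on the method and on 1 library: it passed with DESeq2 (0.66, adjusted p = 0.0231) and without Adi replicate 3 (0.87, edgeR adjusted p = 0.0407), and the adjusted p was 0.0231 to 0.258 over all 12 alternatives, in which the direction was the same.

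Pparg had 23.2, 25.7 and 22.0 CPM in Adi_ASA cells, against 16.2, 17.8 and 24.9 CPM in Adi cells. Adi replicate 3 lay inside the Adi_ASA range and the other Adi libraries below it. The log2 fold change was 0.27 (SE 0.14, edgeR adjusted p = 0.351), with a 95% interval of 0.98-fold to 1.48-fold. Without Adi replicate 3 it was 0.48 and passed (edgeR adjusted p = 0.0381), with adjusted p of 0.0381 to 0.669 over all 12 alternatives.

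Cebpb had 193, 172 and 205 CPM in Adi_ASA cells, against 212, 148 and 175 CPM in Adi cells, and the groups overlapped. The log2 fold change was 0.09 (SE 0.24, edgeR adjusted p = 0.901), with a 95% interval of 0.74-fold to 1.53-fold. The data allow a moderate difference either way.

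**Figure D3:**
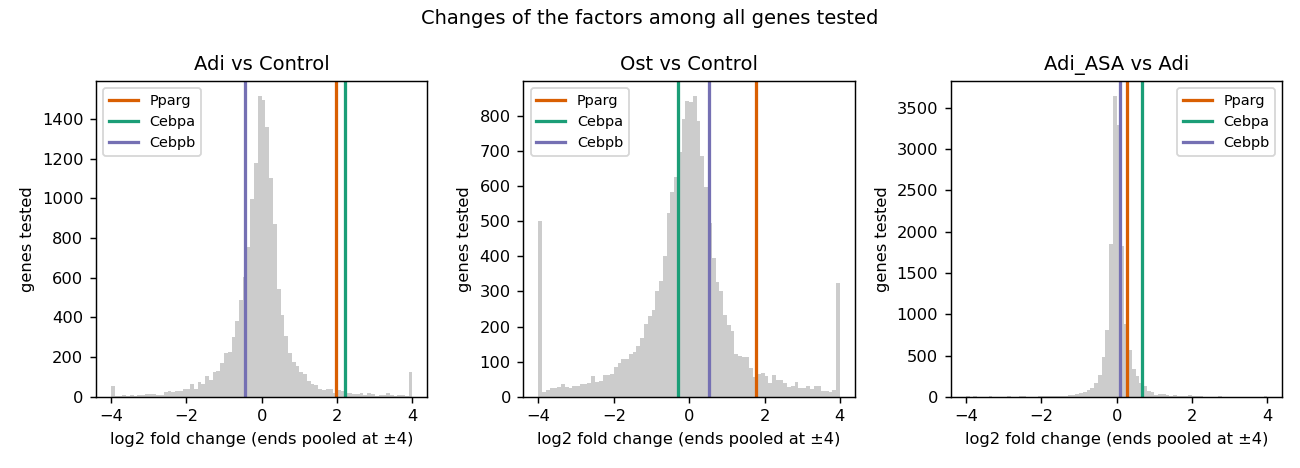
Number of genes tested (y axis) by log2 fold change (x axis, in steps of 0.1, with values beyond 4 in either direction pooled at the ends) in 3 comparisons, with vertical lines at Pparg, Cebpa and Cebpb. Pparg and Cebpa lie in the upper tail for Adi vs Control, Pparg alone for Ost vs Control, and for Adi_ASA vs Adi Cebpa lies furthest to the right of the 3, at 0.67.

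In osteogenic medium aspirin left all 3 factors without a call, where 3.63% of all genes passed between Ost_ASA and Ost. Unadjusted edgeR p was 0.704 for Pparg, 0.229 for Cebpa and 0.364 for Cebpb. DESeq2 called 0 of the 3, and 735 of the 15543 genes fitted. Pparg had 14.3, 19.3 and 15.2 CPM in Ost_ASA, against 15.5, 18.6 and 16.6 CPM in Ost (log2 fold change -0.05, SE 0.14, edgeR adjusted p = 0.915). Cebpa had 24.8, 30.3 and 37.6 CPM in Ost_ASA, against 27.0, 21.3 and 28.1 CPM in Ost (log2 fold change 0.28, SE 0.21, edgeR adjusted p = 0.643). Cebpb had 214, 322 and 375 CPM in Ost_ASA, against 441, 287 and 332 CPM in Ost (log2 fold change -0.22, SE 0.23, edgeR adjusted p = 0.753). For each factor the libraries of the groups were interleaved.

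The 95% intervals in osteogenic medium were 0.78-fold to 1.19-fold for Pparg, 0.87-fold to 1.68-fold for Cebpa and 0.6-fold to 1.23-fold for Cebpb. Whether aspirin acted differently in the media was tested as an interaction, adipogenic minus osteogenic, which 2.83% of all genes passed. It was positive and without a call for Pparg (0.33, SE 0.20, edgeR adjusted p = 0.533), for Cebpa (0.40, SE 0.29, adjusted p = 0.628) and for Cebpb (0.31, SE 0.33, adjusted p = 0.771). Leaving out 1 library at a time gave 0.21 to 0.54 for Pparg, with the highest value without Adi replicate 3 (edgeR adjusted p = 0.101, the lowest of its 18 alternatives, which reached 0.73). The same gave 0.26 to 0.60 for Cebpa and 0.12 to 0.49 for Cebpb. No difference in the response to aspirin between the media was therefore detected for these genes. The 95% intervals of the interaction were 0.93-fold to 1.68-fold for Pparg, 0.84-fold to 2.05-fold for Cebpa and 0.75-fold to 2.07-fold for Cebpb. Unadjusted edgeR p was 0.123 for Pparg, 0.2 for Cebpa and 0.369 for Cebpb. DESeq2 called 0 of the 3, and 638 of the 15543 genes fitted.

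Ordered by level, each factor had its own sequence of groups. Pparg was highest in Adi_ASA (23.6 CPM), then Adi (19.6 CPM), Ost (16.9 CPM), Ost_ASA (16.3 CPM) and Control (4.96 CPM), and Ost_ASA and Control were the only neighbours in this order that differed by the test. Cebpa was highest in Adi_ASA (230.4 CPM), then Adi (145 CPM), Control (31.3 CPM), Ost_ASA (30.9 CPM) and Ost (25.5 CPM), with Adi and Control the only neighbours that differed. Cebpb was lowest in Adi (179 CPM), then Adi_ASA (190.1 CPM), Control (244 CPM), Ost_ASA (304 CPM) and Ost (354 CPM), and no neighbours differed by the test.

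The spread between libraries of 1 group, as the coefficient of variation of CPM, was 7.82% to 23.7% for Pparg, 9.59% to 22.9% for Cebpa and 8.77% to 27.1% for Cebpb. In Adi_ASA it was below 10% for all 3 genes, and in Adi it was 23.7%, 22.9% and 18.0%. Pparg was counted least, with 95 to 119 reads in the Control libraries, so that counting alone gives a variation of 9.53% there, close to the observed 8.89%. For Cebpb, with 2693 to 10267 reads per library, counting alone gives under 2% in every group, so its spread lay mostly between cultures or library preparations, which cannot be told apart.

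Ratios of reads of the factors within a library do not depend on how libraries are scaled, and they show the shift in balance directly. They are ratios of read counts, not per length, so their changes between groups can be read and their absolute size cannot. Each exact two-sided permutation test of 3 libraries against 3 has a smallest possible p of 0.1, which is 0.129 after Benjamini-Hochberg adjustment over the 18 ratio comparisons made. Groups did not overlap in 14 of these 18, and the share for ratios of other genes was not computed.

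The balance of Cebpa and Pparg in adipogenic medium overlapped that in Control through Adi replicate 2, and the other Adi libraries lay above all Control libraries. There were 8.18, 6.74 and 7.33 reads of Cebpa per read of Pparg in Adi, against 5.32, 6.9 and 6.67 in Control. The log2 difference was 0.24 (exact permutation p = 0.2, n = 3 each). In Ost the ratio was 1.75, 1.15 and 1.69, below every Control library and 4.17-fold lower on average (log2 difference -2.06, exact permutation p = 0.1). With aspirin in adipogenic medium it was 11.0, 8.48 and 9.88, above every Adi library and 1.32-fold higher on average (log2 difference 0.40, exact permutation p = 0.1).

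Cebpb was far ahead of Pparg in reads in Control and less so in both media. The ratio of Cebpb to Pparg was 13.1, 8.34 and 7.06 in Adi, against 48.3, 53.4 and 44.9 in Control (5.31-fold lower in Adi, exact permutation p = 0.1, n = 3 each). It was 28.5, 15.5 and 20.0 in Ost, also below every Control library (2.36-fold lower in Ost, exact permutation p = 0.1). Aspirin gave overlapping values, with a log2 difference of -0.19 for Adi_ASA against Adi and -0.17 for Ost_ASA against Ost (exact permutation p = 0.6 for each).

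**Figure D4:**
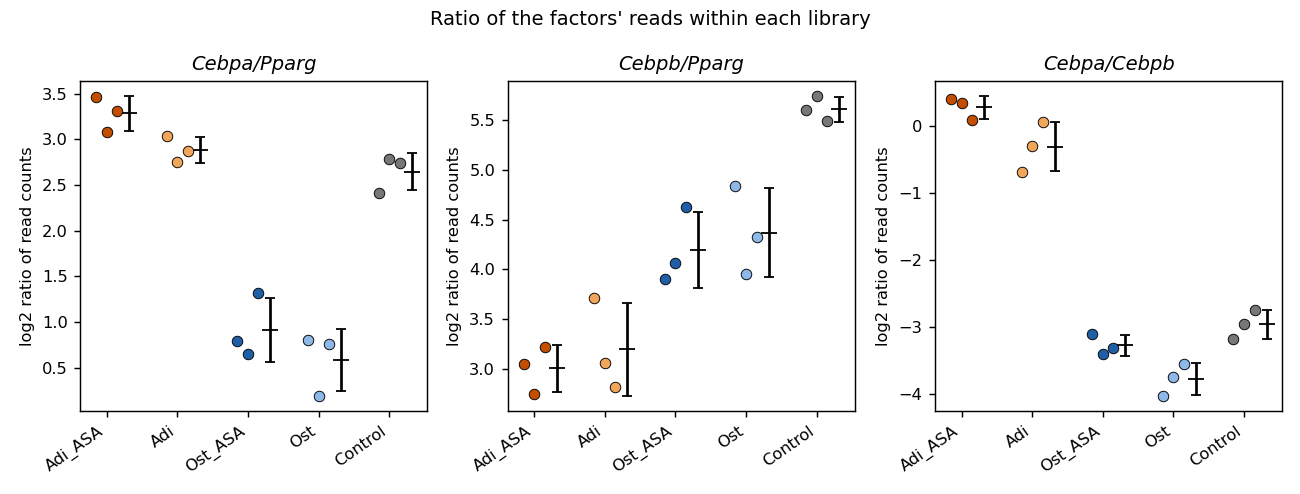
Log2 ratio of read counts of Cebpa to Pparg, Cebpb to Pparg and Cebpa to Cebpb (y axes) within each of the 15 libraries, by group. Points are libraries in replicate order, and the bar beside them is the mean with its SD (n = 3). Cebpa to Cebpb is highest in the adipogenic groups (means 0.28 in Adi_ASA and -0.31 in Adi) and lowest in Ost (-3.78), with Control at -2.96.

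The balance between the C/EBP factors, which bind like sequences as dimers, had the largest difference of the 3 ratios between Adi and Control. The ratio of Cebpa to Cebpb is fixed by the other ratios, so it is no separate result and the ratio comparisons are not independent. Reads of Cebpa per read of Cebpb were 0.622, 0.808 and 1.04 in Adi, against 0.11, 0.129 and 0.149 in Control, a 6.28-fold higher ratio (log2 difference 2.65, exact permutation p = 0.1, n = 3 each). In Ost they were 0.0613, 0.0742 and 0.0846, all below Control and 1.76-fold lower (log2 difference -0.82, exact permutation p = 0.1).

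With aspirin the ratio of Cebpa to Cebpb was higher in both media without overlap. It was 1.33, 1.26 and 1.06 in Adi_ASA, against 0.622, 0.808 and 1.04 in Adi, 1.5-fold higher on average (log2 difference 0.59, exact permutation p = 0.1, n = 3 each). The margin was narrow, since Adi replicate 3 and Adi_ASA replicate 3 almost met. It was 0.116, 0.0942 and 0.1 in Ost_ASA, against 0.0613, 0.0742 and 0.0846 in Ost, 1.42-fold higher on average (log2 difference 0.50, exact permutation p = 0.1). At the smallest p the design allows, these differences do not reach 0.05. Groups did not overlap in 14 of the 18 ratio comparisons made, which include those between media and with Control. All are ratios of the same 3 genes, so that share is no background for the aspirin comparisons. Of those with aspirin, Cebpb to Pparg overlapped in both media and Cebpa to Pparg in osteogenic medium.

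The genes whose profile over the 15 libraries was most like each factor were found by Pearson correlation of log2 CPM, given as a description since libraries of 1 group share their treatment. The files do not pair these identifiers with symbols. Closest to Pparg was ENSRNOG00000010805 (r = 0.983), with 1120 ± 55.4 CPM in Adi_ASA, 648 ± 117 CPM in Adi, 402 ± 62.8 CPM in Ost_ASA, 302 ± 30.6 CPM in Ost and 9.66 ± 1.46 CPM in Control (SD, n = 3 each). It was chosen for its likeness to Pparg, so its higher level than Control in both media is no separate result. Its log2 fold change in Adi against Control was 6.065, where Pparg had 1.98. Between Adi_ASA and Adi it was called (0.788, SE 0.142, edgeR adjusted p = 0.00875), and Pparg was not. The Adi_ASA and Adi libraries were also used to choose it, so this call is no separate result. Whether its change differed from that of Pparg was not tested. The genes of rank 2 to 5 in likeness to Pparg had no call there (edgeR adjusted p of 0.115 to 0.999).

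Closest to Cebpa was ENSRNOG00000036693 (r = 0.988), with 68.8 ± 3.47 CPM in Adi_ASA, 44.4 ± 5.8 CPM in Adi, 19.2 ± 2.48 CPM in Ost_ASA, 18.8 ± 0.495 CPM in Ost and 20.2 ± 0.126 CPM in Control. Closest to Cebpb was ENSRNOG00000012428 (r = 0.932), with 96.5 ± 7.14 CPM in Adi_ASA, 96.5 ± 9.37 CPM in Adi, 138 ± 26.8 CPM in Ost_ASA, 149.6 ± 11.4 CPM in Ost and 126 ± 4.66 CPM in Control. Profiles with r of at least 0.95 numbered 20 for Pparg, 129 for Cebpa and 0 for Cebpb among the 15543 genes tested.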

How the data were processed

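The deposited file was a table of read counts, whole and not normalized, with 1 column per library. The submitters' processing notes name HISAT2 2.0.4, HTSeq 0.9.1 and DESeq 1.18.0 with the build Rnor_6.0, and give no settings, strand or annotation release here. In the GRCr8 reference 0 genes overlapped the 3 studied.

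edgeR 4.0.16 (R 4.3.3) was run on all genes kept by filterByExpr: TMM, robust glmQLFit and glmQLFTest, 1 model of 5 group means, 9 contrasts and Benjamini-Hochberg adjustment over 15543 genes. The SE is the log2 fold change divided by the square root of F. Log2 CPM used a prior count of 2. Ratios were compared with SciPy 1.17.1. Sample titles gave groups and replicate numbers, and do not say that the numbers pair libraries. Libraries with the same number shared no visible deviation from their group means (correlations -0.07 to 0.04 over 30 pairs). This cannot show whether cultures or animals were shared, and libraries were treated as unpaired. Replicates differed by more than counting noise. Alternatives were RLE scaling, DESeq2 1.42.0, 2 other filters, fewer groups, a replicate block and leaving out each library. DESeq2 kept its default filtering, so its adjustment may run over fewer genes than the 15543 fitted.

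The genes and lists were chosen with earlier results of these data known. Genes named beside the 3 were the closest 1 per factor by correlation. A further 10 lists (89 symbols of related factors, targets and cell type markers) were not analysed here, since 0 symbols could be paired with an identifier.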

Additional observations from a re-analysis of the deposited data

How the results depend on the processing

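Over 27 fold changes of the 3 factors and 342 alternatives, 330 left the call as it was, 5 lost it, 7 gained it and 0 reversed a called direction. All rises of Pparg and Cebpa against Control and the differences of Cebpa and Cebpb between Adi and Ost kept their calls. DESeq2 gained Cebpb in Ost against Control (0.54) and Cebpa in Adi_ASA against Adi (0.66), and fitting only the compared groups lost Cebpb between Adi_ASA and Ost_ASA (-0.67). The replicate block changed no call (Cebpa in Adi_ASA against Adi 0.69, edgeR adjusted p = 0.1), and the titles do not say that the numbers pair libraries. The cause of these changes was not tested.

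Leaving out 1 library at a time gave ranges of 0.35 to 0.68 for Cebpb in Ost against Control, 0.004 to 0.33 for Pparg in Adi against Ost, 0.15 to 0.48 and 0.55 to 0.87 for Pparg and Cebpa in Adi_ASA against Adi, and -0.88 to -0.49 for Cebpb in Adi_ASA against Ost_ASA. Genes called ranged from 284 to 529 for Adi_ASA against Adi (675 with all libraries), 335 to 536 for Ost_ASA against Ost (564) and 288 to 427 for the interaction (440).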
